A study of Mus musculus with 11 samples.

Results

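The genes described here are Ccne1 and Ccne2, which encode the E-type cyclins, Cdk2, which encodes their kinase partner, and Cdc25a, which encodes a phosphatase that activates CDK2. They were taken by symbol from a table of FPKM values (fragments scaled to transcript length and to the mapped fragments of the library) for 17181 genes in 11 tumours, and all 4 were found. The tumours were raised from the 4T1 line, which derives from a mouse mammary carcinoma and serves as a model for triple-negative disease, by injection under the skin of both flanks of mice that the design text names as NSG, a strain that lacks T, B and NK cells, while the series title calls the model syngeneic. Treatment started at a tumour volume of about 100 mm3 and lasted 12 days, and poly(A) RNA of whole tumour tissue was sequenced. The groups were palbociclib at 30 mg/kg per day together with OPG-Fc given 3 times a week at 10 mg/kg (the combination, n = 3), palbociclib alone (n = 3), OPG-Fc alone (n = 3) and vehicle (n = 2), each at those doses. Palbociclib inhibits the kinases CDK4 and CDK6, and OPG-Fc captures RANKL as a soluble decoy of its receptor RANK. The labels give the line a wild-type genotype, call the vehicle tumours untreated in their titles, and state neither the age of the hosts nor which tumours shared an animal, so the spread behind each p-value is that between tumours, which may be partly technical. In the sample descriptions a leading number is shared by combination replicates 1 and 2 and another by OPG-Fc replicates 2 and 3. Its meaning is not stated, and if it marks an animal, each of these groups of 3 tumours holds 2 animals. Across genes, Pearson's r of log2(FPKM + 1) was 0.99 between combination replicates 1 and 2, against 0.972 and 0.965 for either with replicate 3, but 0.979 between OPG-Fc replicates 2 and 3, against 0.986 and 0.97 for either with replicate 1.

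Progress from G1 into S phase is driven by the phosphorylation of the retinoblastoma protein, which releases E2F transcription factors. Cyclin D with CDK4 or CDK6 starts that phosphorylation, and cyclin E with CDK2 extends it and fires replication origins. Ccne1, Ccne2 and Cdc25a are textbook E2F targets, so the route is both a cause of retinoblastoma protein inactivation and switched on by it. In breast cancer, high cyclin E or CDK2 activity is known as a route by which cells can enter S phase while CDK4 and CDK6 are inhibited. The comparisons therefore ask whether the transcripts of this route lay higher in palbociclib-treated tumours, and whether adding OPG-Fc changed them.

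The promoters of Ccne1, Cdk2 and Cdc25a are shown because E2F binding letters would lie there. Each run below is the 250 bases before the RefSeq start site, 5′ to 3′ on the strand of the gene, on GRCm38.p6, an older build than the one used for the FPKM values. Capitals mark matches on either strand to any of the E2F letters TTTCCCGC, TTTCGCGC, TTTGCCGC and TTTGGCGC, which do not overlap the CCAAT box letters also searched.
Ccne1, chr7:38107491-38107740, minus strand: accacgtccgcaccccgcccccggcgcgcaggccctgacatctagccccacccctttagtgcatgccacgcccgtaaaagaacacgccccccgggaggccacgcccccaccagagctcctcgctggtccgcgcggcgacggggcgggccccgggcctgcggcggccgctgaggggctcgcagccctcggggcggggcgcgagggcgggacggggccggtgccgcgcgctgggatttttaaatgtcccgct
Cdk2, chr10:128705052-128705301, minus strand: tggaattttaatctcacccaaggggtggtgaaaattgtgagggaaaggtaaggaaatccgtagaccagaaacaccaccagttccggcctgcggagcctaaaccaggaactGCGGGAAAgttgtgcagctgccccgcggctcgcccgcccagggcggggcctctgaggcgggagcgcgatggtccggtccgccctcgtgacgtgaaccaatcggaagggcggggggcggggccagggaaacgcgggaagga
Cdc25a, chr9:109875329-109875578, plus strand: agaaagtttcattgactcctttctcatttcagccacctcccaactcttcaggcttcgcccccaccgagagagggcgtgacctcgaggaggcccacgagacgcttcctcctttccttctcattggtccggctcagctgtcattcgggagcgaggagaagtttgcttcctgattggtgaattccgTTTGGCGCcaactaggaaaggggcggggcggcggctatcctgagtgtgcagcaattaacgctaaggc
The Ccne1 promoter held 0 matches in this window and had a GC content of 76.0%. The Cdk2 promoter held 1 match, TTTCCCGC, read on the opposite strand between 140 and 133 bases before the start, and the Cdc25a promoter held 1 match, TTTGGCGC, read on the strand of the gene between 67 and 60 bases before it. CCAAT was found 0 times in the Ccne1 window, 1 time in that of Cdk2 and 2 times in that of Cdc25a. Of 32851 mouse promoter windows of this length, 611 (1.86%) held at least 1 of the E2F letters and 33.8% held CCAAT. A match is a description of letters and not a bound site.

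Vehicle replicate 2 was unlike the other 10 libraries in tissue content, so each comparison is given with all 11 libraries and again without it. The summed FPKM of 8 epithelial markers was 55.6 in that library against 2420 to 3580 in the other 10, and that of 7 lymphoid markers was 5650, against 666 in OPG-Fc replicate 2 and 5.72 to 33.5 in the other 9. Epcam, an epithelial adhesion molecule that should mark 4T1 cells, had an FPKM of 11.71 there against 336.26 to 604.1 elsewhere, and no epithelial or lymphoid marker was at 0 throughout a group. Jchain, the joining chain of secreted antibodies, had an FPKM of 3925.08 there, which goes against a host without B cells, and whether this library is tumour tissue was not tested. OPG-Fc replicate 2 stands apart to a lesser degree, with an FPKM of 476.41 for Jchain and 73.58 for Cd79a, part of the B cell receptor. Without vehicle replicate 2 the vehicle group is 1 library, assumed in the fit to vary like the other groups. In bulk tissue, fewer cells of a type and less RNA per cell cannot be told apart. The FPKM of a library summed to between 576699 and 864670, and since no counts were used the read depth is unknown. Some marker sums also differed between treatments. Those of the epithelial markers were 2970 to 3410 in combination tumours, 3170 to 3580 in palbociclib tumours, 2420 to 2550 in OPG-Fc tumours and 2810 in vehicle replicate 1. The 7 fibroblast markers summed to an FPKM of 666 to 924 in combination tumours, 519 to 687 in palbociclib tumours, 1760 to 2600 in OPG-Fc tumours and 688 to 1280 in vehicle tumours. The 5 endothelial markers summed to 34.2 to 40.8, 33.3 to 33.7, 77.9 to 101 and 51.4 to 99.0, and the 5 adipocyte markers to 80.6 to 411, 51.9 to 72.1, 508 to 1390 and 57.8 to 681, in the same order of groups. The 7 skin markers reached 1110 and 972 in palbociclib replicates 1 and 3 against at most 245 in the other 9 libraries. The 6 macrophage markers summed to 669 to 1440 in combination tumours and 457 to 616 in palbociclib tumours, without overlap. Their sums were 1060 to 1110 in OPG-Fc tumours and 679 to 1280 in vehicle tumours. For the 5 skeletal muscle markers the sums were 56.1 to 332, 59.6 to 221, 31.0 to 279 and 5.77 to 15.3, in the same order of groups. The part of these tissues in the values below was not tested.

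Ccne1, the cyclin that switches CDK2 on at the end of G1, had an FPKM of 8.83, 7.89 and 9.02 in combination tumours, 5.23, 6.03 and 7.04 in palbociclib tumours, 6.32, 8.44 and 6.47 in OPG-Fc tumours, and 4.46 and 20.29 in vehicle tumours. The combination libraries all lay above the palbociclib libraries and overlapped the OPG-Fc libraries, while the vehicle libraries were the lowest and the highest of all 11. Mean FPKM was 8.58 ± 0.605 with the combination, 6.1 ± 0.907 with palbociclib and 7.08 ± 1.18 with OPG-Fc (SD, n = 3 each), against 12.4 ± 11.2 with vehicle (SD, n = 2). In the order of the 3 treated groups by mean, combination, OPG-Fc, palbociclib, neighbouring groups overlapped, the combination and OPG-Fc through OPG-Fc replicate 2 alone.

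Ccne2, the second E-type cyclin, had an FPKM of 6.33, 5.82 and 2.75 in combination tumours, 3.3, 3.67 and 7.38 in palbociclib tumours, 6.42, 4.33 and 5.2 in OPG-Fc tumours, and 6.31 and 10.58 in vehicle tumours. All 3 treated groups overlapped one another. Their means were 4.97 ± 1.94 with the combination, 4.78 ± 2.26 with palbociclib and 5.32 ± 1.05 with OPG-Fc (SD, n = 3 each), against 8.45 ± 3.02 with vehicle (SD, n = 2). Within groups, combination replicate 3 was the lowest of its group and palbociclib replicate 3 the highest of its group.

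Cdk2, the kinase that both cyclins activate, had an FPKM of 37.61, 34.38 and 38.1 in combination tumours, 29.4, 28.97 and 38.05 in palbociclib tumours, 28.9, 35.78 and 36.18 in OPG-Fc tumours, and 33.24 and 48.06 in vehicle tumours. The treated groups overlapped, with means of 36.7 ± 2.02, 32.1 ± 5.12 and 33.6 ± 4.09 for combination, palbociclib and OPG-Fc (SD, n = 3 each), against 40.7 ± 10.5 for vehicle (SD, n = 2).

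Cdc25a, whose product removes the inhibitory phosphates from CDK2, had an FPKM of 9.86, 9.0 and 11.2 in combination tumours, 10.1, 9.8 and 9.24 in palbociclib tumours, 9.97, 10.5 and 10.39 in OPG-Fc tumours, and 10.64 and 17.76 in vehicle tumours. Outside vehicle replicate 2, the 10 values lay within 1.24-fold of each other. The means were 10.0 ± 1.11 with the combination, 9.71 ± 0.437 with palbociclib and 10.3 ± 0.28 with OPG-Fc (SD, n = 3 each), against 14.2 ± 5.03 with vehicle (SD, n = 2).

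**Figure D1:**
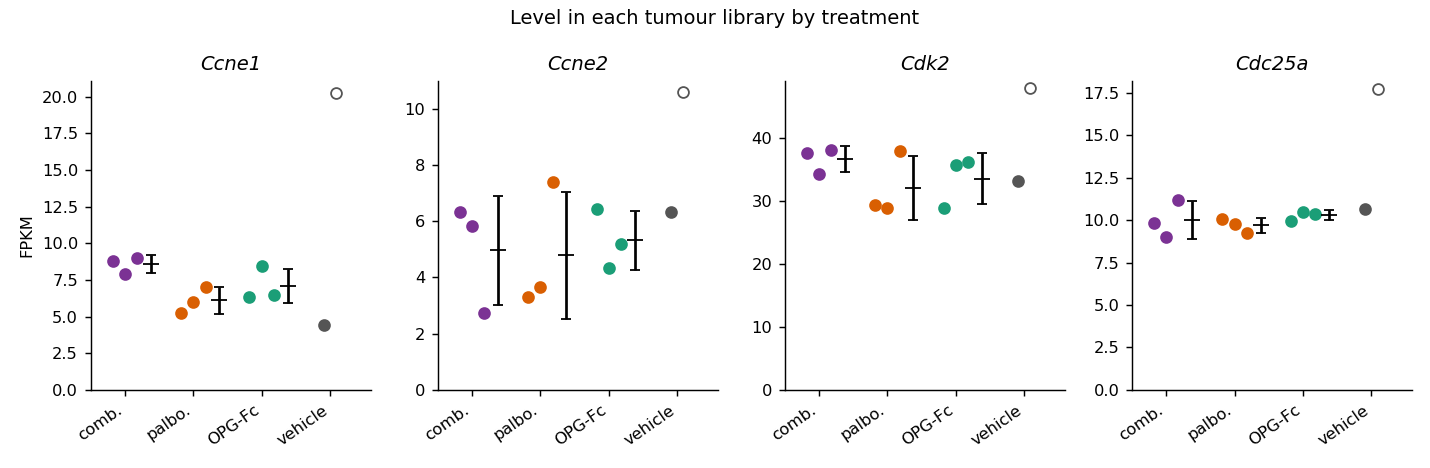
FPKM of each gene (y axis, from 0) in every tumour library, by treatment (x axis). Filled points are libraries, the open point is vehicle replicate 2, and black bars give the mean and SD of the 3 libraries of each treated group. Ccne1 lies at 7.89 to 9.02 in combination tumours and 5.23 to 7.04 in palbociclib tumours, and the open point is the highest of all 11 for each of the 4 genes.

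All 4 genes had their highest value in vehicle replicate 2, at 2.25 times the highest of the other 10 for Ccne1, 1.43 times for Ccne2, 1.26 times for Cdk2 and 1.59 times for Cdc25a. The same library was the highest of all 11 for 4551 of the 13074 genes tested (34.8%). Over the other 10 libraries the coefficient of variation was 22.2% for Ccne1, 30.2% for Ccne2, 11% for Cdk2 and 6.5% for Cdc25a, against a median of 20.0% over all genes tested. Cdc25a was thus among the steadiest transcripts in the data, since 1.2% of tested genes varied less, while 75.9% varied less than Ccne2.

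On the FPKM scale, which is per transcript length, Cdk2 was above Cdc25a in 11 of 11 libraries and Cdc25a above Ccne1 in 10 of 11, the exception being vehicle replicate 2. Ccne1 was above Ccne2 in 8 of 11. The ratio of Ccne1 to Ccne2 FPKM was 1.39, 1.36 and 3.28 in combination tumours, 1.58, 1.64 and 0.954 in palbociclib tumours, 0.984, 1.95 and 1.24 in OPG-Fc tumours, and 0.707 and 1.92 in vehicle tumours, so the balance of the cyclins overlapped between all groups. The summed FPKM of both cyclins was 15.16, 13.71 and 11.77 with the combination, 8.53, 9.7 and 14.42 with palbociclib, 12.74, 12.77 and 11.67 with OPG-Fc, and 10.77 and 30.87 with vehicle. These sums also overlapped between treated groups, with palbociclib replicate 3 inside the combination range. In the GRCm38 annotation Ccne2 overlaps Ints8 and A630034I12Rik, Cdk2 overlaps Pmel and Cdc25a overlaps Mir7089. Whether counting used strand is not given in the sources used here, so how reads in any stretch shared by overlapping genes were assigned is not known. Pmel had an FPKM of 0.2 to 0.79 in the 10 libraries, far under Cdk2, while Ints8 had 10.49 to 19.41, above Ccne2.

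The combination was set against palbociclib alone to show what OPG-Fc added to CDK4/6 inhibition, and no vehicle library enters this difference. With 11 libraries the vehicle pair does enter its standard error and p-value, since the fit shares the spread across all groups. Ccne1 was the gene of this group that lay farthest from zero, 0.44 higher on the log2(FPKM + 1) scale in combination tumours, with none of the 3 combination libraries overlapping the 3 palbociclib libraries. Groups were likewise separate and higher in the combination for 13.7% of all genes tested with 11 libraries and 13.6% with 10. The standard error was 0.40 with all 11 libraries (limma, adjusted p = 0.817 over all genes) and 0.15 without vehicle replicate 2 (adjusted p = 0.197, 95% interval 0.11 to 0.77). Cdk2 differed by 0.20 ± 0.17 and 0.20 ± 0.14 (SE) in the fits with 11 and 10 libraries, Ccne2 by 0.05 ± 0.34 and 0.05 ± 0.31, and Cdc25a by 0.04 ± 0.18 and 0.04 ± 0.11. Of the 4 genes, 0 passed limma at an adjusted p under 0.05 in either fit, as did 0% of all genes, and at an unadjusted p under 0.05 there were 0 with 11 libraries and 1, Ccne1, with 10, against 6.75% and 18% of all genes. For Ccne2 the 95% interval without vehicle replicate 2 ran from -0.64 to 0.74, so differences within that range, in either direction, were not excluded. For Cdc25a it ran from -0.21 to 0.29.

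Palbociclib alone was set against vehicle to ask whether the cyclin E route lay higher under CDK4/6 inhibition, and the answer for Ccne1 turned on which vehicle library was used. With all 11 libraries Ccne1 was lower in palbociclib tumours, at -0.61 ± 0.45 (SE, limma adjusted p = 0.348), and without vehicle replicate 2 it was higher, at 0.37 ± 0.21 (adjusted p = 0.563). Ccne2 was at -0.74 ± 0.38 and -0.41 ± 0.44, Cdk2 at -0.32 ± 0.20 and -0.06 ± 0.19, and Cdc25a at -0.47 ± 0.20 and -0.12 ± 0.16, in the fits with 11 and 10 libraries. The value for Cdc25a had an unadjusted p of 0.0419 and an adjusted p of 0.172 in limma with 11 libraries, the only one of the 4 genes under 0.05 before adjustment there, against 28.1% of all genes. Without vehicle replicate 2 it was 0 of the 4, against 9.84% of all genes. After adjustment 0 of the 4 genes passed in either fit, as did 0% of all genes in each. With vehicle replicate 2, the library with few epithelial transcripts, as the only vehicle library, Ccne1 at -1.59, Cdk2 at -0.58 and Cdc25a at -0.81 passed, as did 52.1% of all genes, so nothing is read from these calls.

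OPG-Fc against vehicle shows RANKL blockade alone. Ccne1 was at -0.43 ± 0.45 with 11 libraries and 0.56 ± 0.21 without vehicle replicate 2 (SE, limma adjusted p = 0.639 and 0.292), and Ccne2 was at -0.56 ± 0.38 and -0.22 ± 0.44. Cdk2 was at -0.25 ± 0.19 and 0.01 ± 0.19, and Cdc25a at -0.39 ± 0.20 and -0.04 ± 0.16. None of the 4 genes passed, while 0% of all genes passed with 11 libraries and 0.0311% with 10. At an unadjusted p under 0.05 in limma there were 0 of the 4 with 11 libraries and 1, Ccne1, with 10, against 10.2% and 12.6% of all genes. With vehicle replicate 2 as the only vehicle library Ccne1 was at -1.41 and Cdc25a at -0.73, and both passed, as did 40.4% of all genes.

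The combination against vehicle gave the largest value of the 4 genes once vehicle replicate 2 was left out. Ccne1 was then 0.81 ± 0.21 higher in combination tumours (SE, limma adjusted p = 0.0922, unadjusted p = 0.00306, 95% interval 0.35 to 1.27), and with all 11 libraries it was at -0.17 ± 0.45 (adjusted p = 0.802). The first value sets 3 combination tumours, at an FPKM of 7.89 to 9.02, against the single vehicle tumour at 4.46. That vehicle tumour was the lowest of the 10 libraries for Ccne1, as it was for 15.2% of all genes tested. Ccne2 was at -0.69 ± 0.38 and -0.35 ± 0.44, Cdk2 at -0.12 ± 0.20 and 0.14 ± 0.19, and Cdc25a at -0.43 ± 0.20 and -0.08 ± 0.16. Again 0 of the 4 genes passed in either fit, against 0% of all genes with 11 libraries and 0.0622% with 10, and at an unadjusted p under 0.05 limma gave 0 of the 4 with 11 libraries and 1, Ccne1, with 10, against 29.6% and 23.5% of all genes. With vehicle replicate 2 as the only vehicle library Ccne1 was at -1.15 and Cdc25a at -0.77, and both passed, as did 50.8% of all genes.

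The combination against OPG-Fc alone shows what palbociclib added under RANKL blockade, again with no vehicle library in the difference. The vehicle pair again enters the standard error with 11 libraries, through the shared spread. Ccne1 was at 0.25 ± 0.40 with 11 libraries and 0.25 ± 0.15 with 10 (SE, limma adjusted p = 0.785 and 0.254), and the 2 groups overlapped through OPG-Fc replicate 2, the library with lymphoid transcripts. Without OPG-Fc replicate 2 the difference was 0.37 ± 0.46 with both vehicle libraries (limma adjusted p = 0.77) and 0.37 without vehicle replicate 2. The 3 combination libraries then lay above the remaining OPG-Fc libraries, as they did for 21.2% of all genes. Leaving out the only overlapping library fixes this separation and the larger difference in advance, so nothing is read from them. Cdk2 was at 0.13 ± 0.17 and 0.13 ± 0.14, Ccne2 at -0.13 ± 0.34 and -0.13 ± 0.31, and Cdc25a at -0.04 ± 0.18 and -0.04 ± 0.11. None of the 4 genes passed in limma, against 0.0994% of all genes with 11 libraries and 5.16% with 10. None had an unadjusted p under 0.05 either, against 15.5% and 31.6% of all genes. Under quantile normalization of the libraries Ccne2 and Cdc25a lay above zero instead, at 0.09 and 0.12 in both fits.

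Averaged over OPG-Fc, palbociclib tumours (n = 6) against tumours without it (n = 5, or 4) gave Ccne1 at -0.18 ± 0.30 with 11 libraries and 0.31 ± 0.13 with 10 (SE, limma adjusted p = 0.68 and 0.145). The others were at -0.43 ± 0.25 and -0.27 ± 0.27 for Ccne2, -0.09 ± 0.13 and 0.04 ± 0.12 for Cdk2, and -0.25 ± 0.13 and -0.08 ± 0.10 for Cdc25a. Of the 4 genes 0 passed in either fit, while 2.83% of all genes passed with 11 libraries and 4.23% with 10, and limma gave 0 and 1 of the 4, Ccne1, at an unadjusted p under 0.05, against 33.9% and 28.8% of all genes. With vehicle replicate 2 as the only vehicle library Ccne1 was at -0.67 and Cdc25a at -0.42, and both passed, as did 53% of all genes. The interaction, which tests whether the palbociclib difference changed with OPG-Fc, was 0.87 ± 0.60 for Ccne1 with 11 libraries and -0.12 ± 0.25 with 10 (adjusted p = 0.647 and 0.979), the value with 10 libraries turning to 0.07 under quantile normalization. The interaction was called for 0 of the 4 genes and for 0% of all genes in either fit, and 0 of the 4 had an unadjusted p under 0.05 in limma, against 5.42% and 4.89% of all genes. With vehicle replicate 2 as the only vehicle library it was called for Ccne1 at 1.85, Cdk2 at 0.71 and Cdc25a at 0.77, and for 36.7% of all genes.

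**Figure D2:**
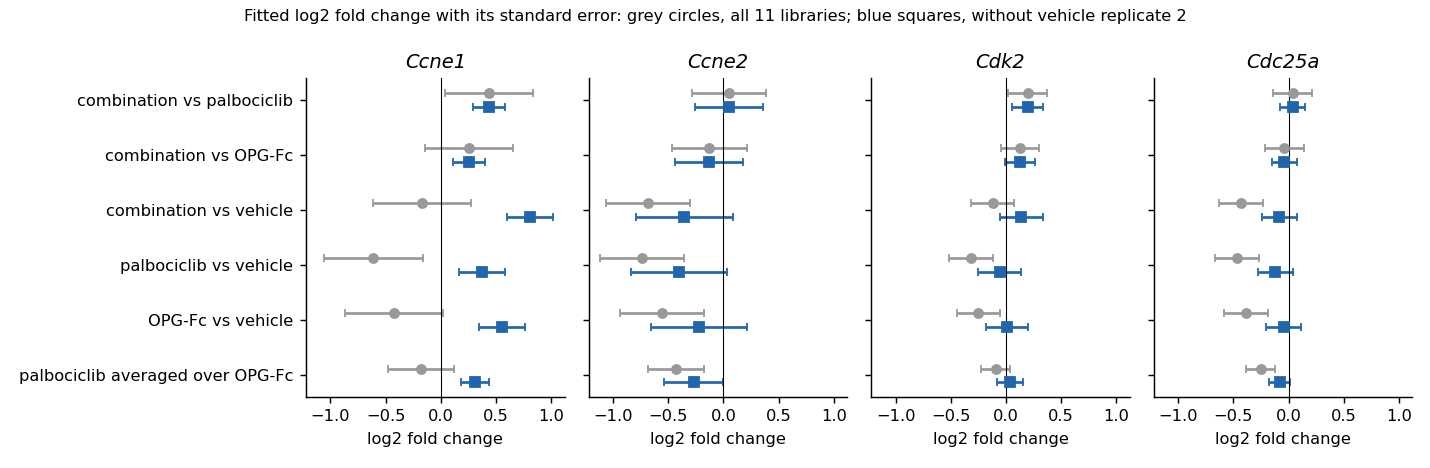
Fitted log2 fold change of log2(FPKM + 1) with its standard error (x axis) for 6 comparisons (y axis), one panel per gene. Grey circles use all 11 libraries and blue squares leave out vehicle replicate 2. The comparisons of the combination with either single drug keep their place between the fits (Ccne1 0.44 and 0.25), and those with vehicle move, for Ccne1 across zero.

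Genes that act with or against cyclin E and CDK2 were read from lists by role, given here without vehicle replicate 2 unless stated. The partners and activators include Cks1b and Cks2, small subunits that bind the kinase, and Mnat1, a subunit of the CDK-activating kinase. In combination against palbociclib 8 of 9 tested genes of this list were above zero, as were 6738 of 12872 genes tested. The median of the list was 0.49, against 0.02 over all genes, and 0 of the list passed in limma, as did 0% of all genes. Cks1b was at 0.61 ± 0.17, Cks2 at 0.60 ± 0.16 and Mnat1 at 0.00 ± 0.14 (SE, adjusted p = 0.139, 0.121 and 1). The sister phosphatases of Cdc25a, named after their values were seen, had larger values: Cdc25c was at 0.71 ± 0.15 and Cdc25b at 0.49 ± 0.17 (adjusted p = 0.0874 and 0.205). Cdc25c had an FPKM of 13.52, 13.77 and 13.43 in combination tumours, against 6.76, 7.34 and 9.97 in palbociclib tumours, and those groups did not overlap, as for 13.6% of all genes in this direction. Whether Cdc25a and its sisters differ from each other was not tested.

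The brakes include Cdkn1c, an inhibitor of G1 kinases, Wee1, a kinase that places the phosphates CDC25A removes, and Cdk2ap1, which binds and restrains CDK2. In combination against OPG-Fc, Cdkn1c was lower, at -0.67 ± 0.15 (SE, limma adjusted p = 0.0426), and it was the only one of 8 brakes that passed, against 5.16% of all genes. Its FPKM was 0.65, 0.58 and 0.4 in combination tumours, against 1.69, 1.3 and 1.36 in OPG-Fc tumours, so it was low in both. In palbociclib tumours it was 0.37, 0.55 and 0.58, and in vehicle tumours 0.36 and 1.16. Only OPG-Fc tumours and vehicle replicate 2 reached the minimum of 1 that let the gene into the test. Without that vehicle library Cdkn1c entered only through the group where it was high, so nothing is read from this call. Its adjusted p with all 11 libraries was 0.25. Wee1 was at -0.28 ± 0.17 and Cdk2ap1 at 0.40 ± 0.16 in the same comparison. Against palbociclib, 6 of the 8 brakes were above zero, as were 6738 of 12872 genes tested. The median of the brakes was 0.15, and 0 passed, as did 0% of all genes.

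The turnover list holds ligase subunits that mark cyclin E or CDC25A for destruction. Fbxw7, the subunit that recognises cyclin E, was at -0.54 ± 0.16 in combination against OPG-Fc and -0.24 ± 0.16 in combination against palbociclib (SE, limma adjusted p = 0.0691 and 0.432). Rbx1, the RING subunit of cullin ligases, was at 0.47 ± 0.16 and 0.27 ± 0.16, and Skp1, the adaptor that holds F-box proteins, at 0.27 ± 0.13 and 0.02 ± 0.13. Of the 8 turnover genes 0 passed in either of these comparisons, against 5.16% and 0% of all genes.

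Among 6 genes for substrates, the pocket proteins Rbl1 and Rbl2 and Npat, a histone gene activator, were named. Rbl1 was at -0.20 ± 0.16 and 0.07 ± 0.16, Rbl2 at -0.38 ± 0.16 and -0.23 ± 0.16, and Npat at -0.34 ± 0.21 and -0.30 ± 0.21 in combination against OPG-Fc and against palbociclib (SE). Of these 6, 0 passed in either, against 5.16% and 0% of all genes. Among 10 transcription factors of this step, Myc was at 0.32 ± 0.13 and -0.13 ± 0.13, Tfdp1, the dimer partner of E2F proteins, at 0.17 ± 0.13 and 0.09 ± 0.12, and E2f4, a repressive E2F, at 0.24 ± 0.12 and 0.27 ± 0.12. Of these 10, 0 passed in either, against the same shares of all genes.

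Of 5 D-type cyclins and their kinases, Ccnd2 fell in combination against OPG-Fc, at -0.82 ± 0.19 (SE, limma adjusted p = 0.0426). Its FPKM was 5.15, 9.05 and 5.8 in combination tumours, against 11.18, 14.18 and 11.55 in OPG-Fc tumours, with 8.85 and 45.81 in vehicle tumours. In palbociclib tumours Ccnd2 had an FPKM of 6.86, 6.34 and 5.5, within the range of the combination. It was 1 of 5 genes that passed, against 5.16% of all genes, and the groups compared did not overlap, as for 23.4% of all genes in this direction. The adjusted p with all 11 libraries was 0.407. Cdk4, the palbociclib target, was at 0.53 ± 0.20 and Ccnd3 at 0.49 ± 0.20 in the same comparison (adjusted p = 0.116 and 0.136). Fibroblast, endothelial and adipocyte marker sums were also lower in combination than in OPG-Fc tumours, with no overlap, as given above. Their part in the lower Ccnd2 was not tested, nor in the Cdkn1c values, from whose call nothing is read.

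Among 23 replication genes of the G1/S step, Gins2, a subunit of the replicative helicase, rose in combination against OPG-Fc, at 0.54 ± 0.12 (SE, limma adjusted p = 0.0432), and for palbociclib averaged over OPG-Fc, at 0.45 ± 0.11 (adjusted p = 0.049). Its FPKM was 60.61, 53.5 and 66.93 in combination tumours, 41.35, 49.69 and 48.48 in palbociclib tumours, 38.73, 45.37 and 39.52 in OPG-Fc tumours, and 35.77 and 18.87 in vehicle tumours. With all 11 libraries the adjusted p was 0.293 and 0.0541. As 1 of 23 genes in each comparison, this is near the background of 5.16% and 4.23% of all genes, and Gins2 was separate and higher in the combination than with OPG-Fc as were 15.5% of all genes. Epithelial marker sums were also higher in combination than in OPG-Fc tumours, with no overlap, and their part in the Gins2 difference was not tested. Gmnn, which encodes the licensing inhibitor geminin, was at 0.38 ± 0.16 and Cdt1, which encodes a licensing factor, at 0.34 ± 0.11 in combination against OPG-Fc, and neither passed.

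In combination against palbociclib, 20 of the 23 replication genes and 19 of 19 G2/M genes were above zero, as were 6738 of 12872 genes tested. The medians of the lists were 0.27 and 0.56, and 0 of either list passed in limma, as did 0% of all genes. Among the G2/M genes Mki67 was at 0.35 ± 0.30, Cenpf, a kinetochore protein, at 0.28 ± 0.25 and Top2a, which untangles replicated DNA, at 0.15 ± 0.25 (SE). Birc5, or survivin, named after its values were seen, had the largest value of the list, at 1.03 ± 0.21 (adjusted p = 0.0808). In combination against OPG-Fc the medians were 0.10 for the replication genes and -0.02 for the G2/M genes, against -0.07 over all genes. In palbociclib against vehicle, which shares its palbociclib libraries with the first of these comparisons, 0 of 19 G2/M genes were above zero, with a median of -0.38 without vehicle replicate 2 and -0.50 with it. Of all genes tested, 5994 of 12872 were above zero without that library and 6186 of 13074 with it.

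**Figure D3:**
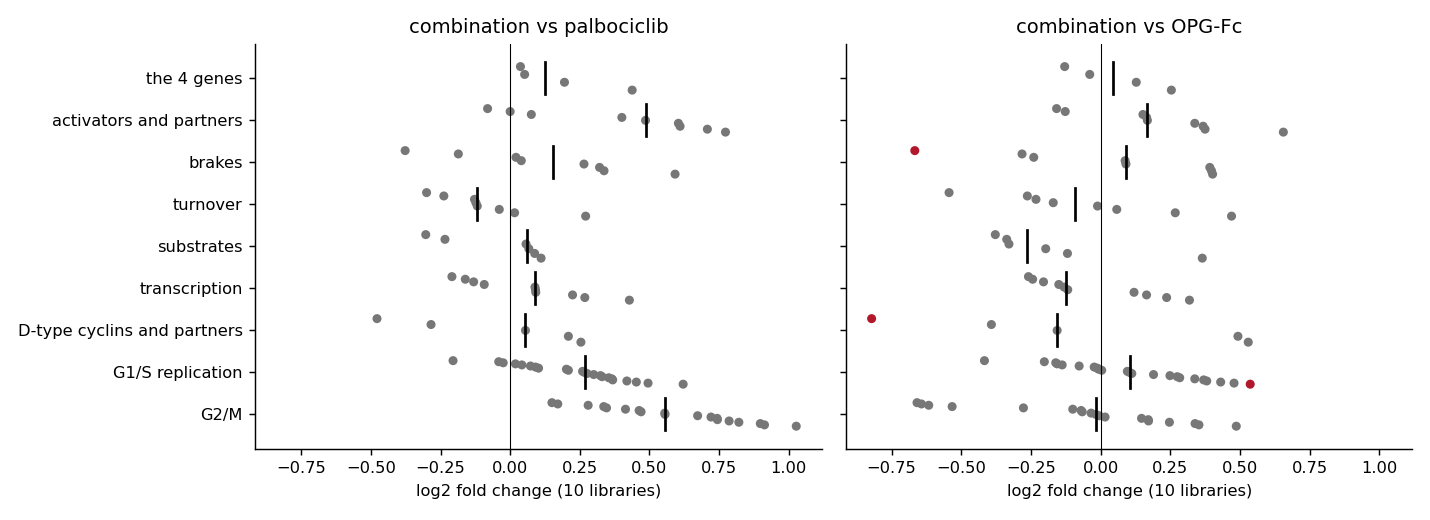
Log2 fold change (x axis) of each gene, by list (y axis), in the fit without vehicle replicate 2, for combination against palbociclib (left) and combination against OPG-Fc (right). Each point is a gene, the black line is the median of the list, and red points passed at an adjusted p under 0.05. All 19 G2/M genes lie above zero on the left, where the median is 0.56, as do 6738 of 12872 genes tested. The 3 red points on the right are Cdkn1c, Ccnd2 and Gins2. Cdkn1c entered this test only through the OPG-Fc tumours, where it was high.

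Each gene was also read relative to the G2/M genes of the same library, as its log2(FPKM + 1) minus the mean of the 19 G2/M genes, since cell-cycle transcripts move with the share of dividing cells. Palbociclib-treated tumours (n = 6) were set against tumours without palbociclib by a two-sided exact permutation test within the OPG-Fc groups. Without vehicle replicate 2, Ccne1 averaged -1.63 ± 0.23 with palbociclib and -2.09 ± 0.14 without it (SD, n = 6 and 4), a stratified difference of 0.52 (exact p = 0.025, adjusted over the 4 tests p = 0.1, smallest possible p = 0.0125). With all 11 libraries the difference was 0.14 (exact p = 0.675, adjusted p = 0.74). Cdk2 gave 0.24 and 0.22 without and with that library (exact p = 0.0875 and 0.075, adjusted p = 0.175 and 0.3), Ccne2 gave -0.06 and -0.12 (exact p = 0.713 and 0.475), and Cdc25a gave 0.13 and 0.06 (exact p = 0.713 and 0.74). None of the 4 passed after adjustment. Without vehicle replicate 2, 1 gene alone could not have passed, since the smallest possible p of 0.0125 does not fall under 0.05 when adjusted over 4 tests. With the 23 replication genes in place of the G2/M genes and all 11 libraries, the sign turned for Ccne1, at -0.15, Cdk2, at -0.07, and Cdc25a, at -0.23. A relative value also moves when the G2/M genes move. Their median was -0.23 in the averaged comparison without vehicle replicate 2, against -0.05 over all genes. Of the G2/M genes 4 of 19 were above zero there, as were 5649 of 12872 genes tested. The genes themselves were at 0.31 for Ccne1, 0.04 for Cdk2, -0.08 for Cdc25a and -0.27 for Ccne2.

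Across the 10 libraries without vehicle replicate 2, the levels of Ccne1 and Cdk2 were related to those of the replication genes more closely than the levels of Ccne2 and Cdc25a, though the difference between the genes was not tested. Relations with 3 library measures were computed for each gene, 12 in all: the mean of the replication genes, the mean of the G2/M genes and the share of summed FPKM in ribosomal protein genes. For Ccne1 and the replication genes, Pearson's r was 0.73 (permutation p = 0.0142, adjusted p = 0.0853) and Spearman's rho 0.84 (permutation p = 0.00376, adjusted p = 0.0451). Without combination replicate 1 and palbociclib replicate 1, which lie farthest from the median, r was 0.63 (exact p = 0.0907). For Cdk2 and the replication genes, r was 0.76 (permutation p = 0.00762, adjusted p = 0.0853), rho 0.78 (permutation p = 0.0102, adjusted p = 0.0613) and r without the same libraries 0.75 (exact p = 0.0349). Groups of 3 libraries are too small for values within a treatment. The permutations ran over all 10 libraries regardless of treatment, so differences between treatments enter r, rho and their p-values. The part of treatment in these relations was not tested.

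Ccne2 with the replication genes gave r = 0.47 and rho = 0.39 (permutation p = 0.172 and 0.263, adjusted p = 0.294 and 0.472), and r = 0.23 without those libraries. Cdc25a gave r = -0.16 and rho = -0.13 (permutation p = 0.656 and 0.733, adjusted p = 0.807 and 0.8), and r = -0.15 without them. With the G2/M genes, Cdk2 had r = 0.66 and rho = 0.37 (permutation p = 0.0405 and 0.296, adjusted p = 0.159 and 0.472), and r was 0.17 without palbociclib replicates 1 and 2, so that relation rested on those libraries. Ccne1 with the G2/M genes had r = 0.60 and rho = 0.65 (permutation p = 0.0655 and 0.0488, adjusted p = 0.159 and 0.195), and r = 0.51 without the same 2. The ribosomal protein share was 26.8% to 34.0% in combination tumours, 27.3% to 32.6% in palbociclib tumours, 20.5% to 23.6% in OPG-Fc tumours and 21.4% to 21.5% in vehicle tumours. Ccne2 gave r = -0.61 and rho = -0.49 with it (permutation p = 0.0662 and 0.156, adjusted p = 0.159 and 0.467), and r = -0.31 without OPG-Fc replicate 1 and combination replicate 3.

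**Figure D4:**
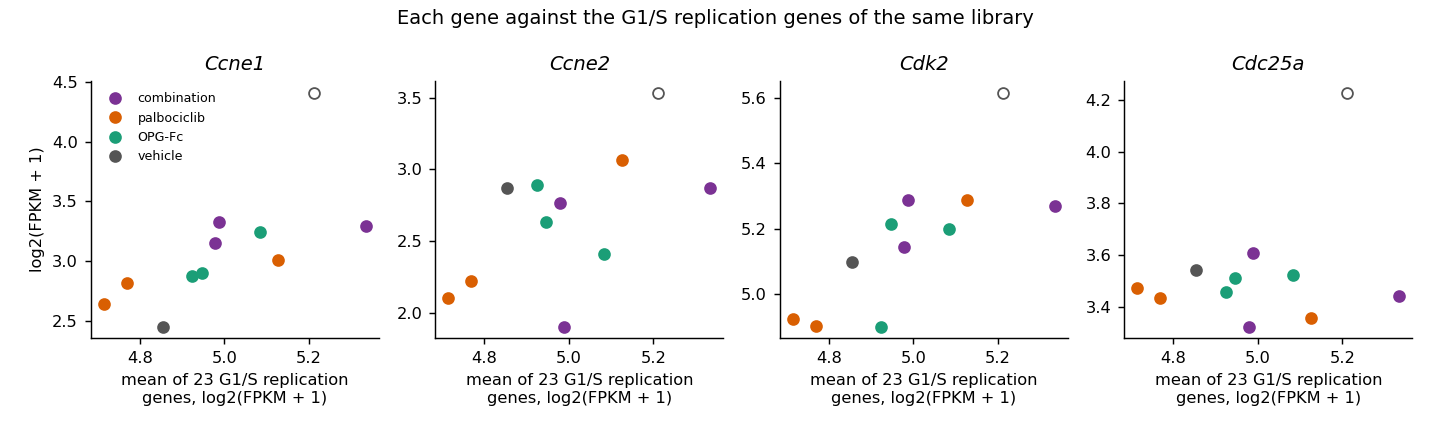
Log2(FPKM + 1) of each gene (y axis) against the mean log2(FPKM + 1) of 23 G1/S replication genes in the same library (x axis), one point per tumour library, coloured by treatment. The open point is vehicle replicate 2 and is left out of the correlations. Over the 10 libraries, with treatments pooled, r was 0.73 for Ccne1 and 0.76 for Cdk2 (permutation, adjusted p = 0.0853 for each). For Cdc25a r was -0.16, and the difference between the genes was not tested.

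The genes most like each member were taken as the 5 tested genes with the highest Pearson's r of log2(FPKM + 1) over the 10 libraries without vehicle replicate 2, as a description without a test. For Ccne1 these were Spc24, a kinetochore subunit, Haus5, an augmin subunit of the spindle, and Sgf29, each at r = 0.96, then Cks2 at 0.96 and Bub3, a spindle checkpoint protein, at 0.95. With all 11 libraries r was 0.59 for Spc24, 0.96 for Haus5, 0.95 for Sgf29, 0.76 for Cks2 and 0.91 for Bub3. For Ccne2 they were Haus6, another augmin subunit, at 0.99, Zfp367, Hccs, Mmgt1 and Zfp808 at 0.96 to 0.98, and all 5 stayed at 0.95 to 0.98 with 11 libraries.

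For Cdk2 the nearest were Pa2g4 at 0.90, Rad54l, a recombination repair protein, at 0.89, Tubg1, which encodes gamma-tubulin, at 0.88, and Phf19 and Pidd1 at 0.86. With 11 libraries they lay between 0.64 for Pa2g4 and 0.94 for Rad54l. For Cdc25a, whose own range was narrow, they were Masp2 at 0.96, Cox4i2 at 0.93, Tmbim6 at 0.92, Ctdsp1 at 0.91 and Ovca2 at 0.90, none of them in the cell-cycle lists used here. Their r with 11 libraries lay between 0.21 for Cox4i2 and 0.89 for Tmbim6. No gene was among the nearest 5 of more than 1 of the 4.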

How the data were processed

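RNA was measured in 11 tumour libraries, and the authors deposited 1 table of FPKM values. HISAT, Bowtie2 and RSEM with GRCm39 and mm39 were used, per the submitters' processing notes, which give no roles, so how multi-mapped fragments were shared between related genes is not known. No counts were used, so the depth per library is unknown, no counting intervals are given, and the number of tumours limits the precision. No column belonged to another series (0).

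Values were taken as log2(FPKM + 1). A pseudocount of 1 understates changes of low genes. The filter asked for 2 or more libraries with an FPKM of 1 or more, which left 13074 genes with 11 libraries and 12872 without vehicle replicate 2. Groups were fitted together in R 4.3.3 by limma 3.58.1 (eBayes with trend), and p-values were adjusted over all genes by Benjamini-Hochberg, with 0.05 as the threshold. The fit was tested on simulated data. Correlations used 100000 permutations.

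Members and gene lists were chosen with earlier results of these data known. The text names the 4 genes, list members that passed in a comparison or else the 3 with the smallest p for palbociclib averaged over OPG-Fc without vehicle replicate 2, and the 5 genes most like each of the 4. Promoters came from RefSeq on GRCm38.p6, matched by symbol for 3 of the 4 genes. Alternatives varied the pseudocount, filter, scaling, variance prior, replicate block and each library. Figures used matplotlib 3.10.9.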

Additional observations from a re-analysis of the deposited data

How the results depend on the processing

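No value of the 4 genes passed at an adjusted p under 0.05 among 792 alternative values, with 11 libraries or without vehicle replicate 2. These exclude the alternatives that dropped a single vehicle library and include the fit with no vehicle library. Of 848 values of the 4 genes under alternatives, 798 kept their direction and side of the threshold, 38 turned their direction, and 12 passed where the first value had not, each of those 12 with vehicle replicate 2 as the only vehicle library. The cause was not tested. No scaling moved the median of all genes by over 0.1 on the log2 scale.

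With all 11 libraries, the number of genes passing was 1 for palbociclib against vehicle at a pseudocount of 0.1 and 3 under quantile normalization, against 0. For the combination against vehicle it was 13, 6 under quantile normalization and 90 with a minimum FPKM of 5, against 0. For the combination against OPG-Fc it was 0 at a pseudocount of 0.1, with no filter, under quantile normalization, under median-of-ratios scaling and with a replicate block, and 657 with no vehicle library in the fit, an alternative added after seeing the data, against 13. For palbociclib averaged over OPG-Fc it was 221 with no filter, 184 under quantile normalization, 186 under median-of-ratios scaling and 7 with the replicate block, against 370. In combination against OPG-Fc, Ccne2 turned to 0.09 and Cdc25a to 0.12 under quantile normalization, and Cdc25a to 0.05 under median-of-ratios scaling.

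Without vehicle replicate 2, a pseudocount of 0.1 gave 5 genes in palbociclib and 32 in combination tumours against vehicle, in place of 0 and 8. Quantile normalization gave 1 for palbociclib, 2 for OPG-Fc and 19 for the combination set against vehicle, and 290 in combination against OPG-Fc, against 664. It turned Cdk2 in OPG-Fc against vehicle to -0.04, Ccne2 and Cdc25a in combination against OPG-Fc to 0.09 and 0.12, Cdc25a in the averaged comparison to 0.01 and the interaction of Ccne1 to 0.07.

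For tumours of the same replicate number, the correlation of deviations from the group means ran from -0.41 to 0.53, with 5 of 15 pairs over 0.1. For other pairs it ran from -0.53 to 0.43. In groups this small the deviations mirror each other, so these values cannot show whether samples were paired. The leading numbers of the sample descriptions were not tested. With the replicate block and without vehicle replicate 2, 0 genes passed in OPG-Fc and 0 in combination tumours against vehicle, 206 in the combination against OPG-Fc and 33 for the averaged comparison, Cdk2 was at -0.09 in OPG-Fc against vehicle and -0.01 in the averaged comparison, and no call of the 4 genes changed.

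Relative to the replication genes and with all 11 libraries, Ccne1 was at -0.15, Cdk2 at -0.07 and Cdc25a at -0.23.

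Leaving out each of the 11 libraries gave ranges of genes passing of 0 to 6799 for palbociclib, 0 to 5270 for OPG-Fc and 0 to 6638 for the combination against vehicle, 0 to 143 for the combination against palbociclib, 0 to 664 for the combination against OPG-Fc, 2 to 6923 for the averaged comparison and 0 to 4798 for the interaction, the highest being without vehicle replicate 1 except for the comparisons between treated groups. Against vehicle, Ccne1 ranged from -1.59 to 0.37 for palbociclib, -1.41 to 0.56 for OPG-Fc and -1.15 to 0.81 for the combination, Cdk2 from -0.58 to -0.06, -0.51 to 0.01 and -0.38 to 0.14, and Cdc25a from -0.81 to -0.12, -0.73 to -0.04 and -0.77 to -0.08. In combination against palbociclib Ccne2 ranged from -0.13 to 0.36 and Cdc25a from -0.04 to 0.10, and in combination against OPG-Fc from -0.31 to 0.18 and -0.11 to 0.03, with the same ranges when vehicle replicate 2 was left out as well. In the averaged comparison Ccne1 ranged from -0.67 to 0.31, Cdk2 from -0.22 to 0.04 and Cdc25a from -0.42 to -0.08, and in the interaction from -0.12 to 1.85, 0.19 to 0.71 and 0.08 to 0.77. Relative to the G2/M genes Ccne1 ranged from -0.25 to 0.52 and Cdc25a from -0.02 to 0.18.

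Leaving out a further library beside vehicle replicate 2 gave 0 to 189 genes for palbociclib, 0 to 86 for OPG-Fc and 0 to 35 for the combination against vehicle, 0 to 389 for the combination against palbociclib, 28 to 865 for the combination against OPG-Fc, 126 to 786 for the averaged comparison and 0 to 80 for the interaction. Cdk2 then ranged from -0.18 to 0.01 for palbociclib and -0.05 to 0.11 for OPG-Fc against vehicle and -0.03 to 0.07 in the averaged comparison, and the interaction of Ccne1 from -0.21 to 0.00.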
